A study of Mus musculus with 8 samples.

Results

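The 37 genes described here encode the collagens and the other structural proteins of the dermis, the connective tissue layer of the skin, with the enzymes that cross-link them. They were taken by symbol from a list of 15 collagen chains and 22 further matrix genes, and all 37 were present among the 19126 genes of the deposited table. RNA came from the left ears of 8 C57BL/6 mice aged 6 to 8 weeks with induced allergic contact dermatitis. This inflammation is driven by T cells that recognise a chemical the skin has met before. Every mouse was first given 25 µL of 0.3% dinitrofluorobenzene (DNFB), the sensitiser, and on day 6 the left ear received 10 µL of 0.25% DNFB. The inhibitor group of 4 mice was injected intraperitoneally with 10 mg/kg of MMP-9-IN-1, a compound that blocks matrix metalloproteinase 9 (MMP-9), a protease released into the matrix. The vehicle group of 4 mice had an equal volume of the solvent, 10% DMSO with 40% PEG300 and 50% PBS, and the ears were collected after the procedure had been carried on for 4 days. Both groups were therefore sensitised and challenged, and ears without DNFB were not analysed here. Each library came from 1 numbered mouse. The titles call the tissue ear skin and the other labels ear, and markers of cartilage and muscle were read in it as well as those of skin.

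The dermal matrix is built by fibroblasts around fibrils of collagens I and III, which give tensile strength, and around elastic fibres of elastin on a scaffold of fibrillin. Basement membranes under the epidermis and around vessels are sheets of collagen IV and laminins joined by nidogen. Small proteoglycans such as decorin coat the fibrils, and glycoproteins such as tenascin and thrombospondin are made in larger amounts in injured skin. MMP-9, also called gelatinase B, cleaves denatured collagen, collagens IV and V and elastin in the test tube. The comparison asks how treatment with its inhibitor altered the RNA of these genes in the inflamed ear.

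No matrix gene differed between inhibitor and vehicle ears beyond the spread between mice. The estimates ran from a log2 fold change of -1.02 for Thbs1, the gene of the matrix glycoprotein thrombospondin 1, to 0.84 for Loxl1, a lysyl oxidase that cross-links elastin. Many of the wider differences, though not that of Thbs1, followed a division of the ears numbered 3 and 4 from those numbered 1 and 2. That division was known from earlier results of these data and is not in the labels. In 16 of the 37 genes, among them the fibrillar collagens Col1a1 and Col3a1, the elastin gene Eln and Sparc, all 4 ears numbered 3 and 4 lay above all 4 ears numbered 1 and 2, with vehicle and inhibitor ears on both sides. That is 43.2% of the matrix genes, against 19.5% of all genes tested. Thbs1 was high in vehicle mice 1 and 2 and in inhibitor mouse 2 and low in the 5 other ears.

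The libraries held between 13863145 and 18512200 reads, with 17028 to 17629 genes read at least once. Levels are given as CPM, reads scaled to library size with TMM factors, which correct for differences in library makeup, and they compare ears for 1 gene. Levels of different genes are compared as TPM, which take gene length into account. Markers of the skin and of the other tissues of the ear were present. The 10 keratinocyte markers summed to between 12503 and 25729 CPM in an ear, the 12 fibroblast markers to between 1143.5 and 3402 CPM and the 10 skeletal muscle markers to between 334 and 3199.9 CPM. In bulk tissue, fewer cells of a type and less RNA per cell cannot be told apart.

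Promoter windows of 23 of the 37 genes were in RefSeq's table for GRCm38.p6, an older build than the GRCm39 named in the submitters' processing notes. The 250 bases before the annotated start are shown for Col1a2, Col3a1 and Sparc, as genes high in the ears numbered 3 and 4, and for Tnc, the tenascin C gene, as a gene with another order of ears. They lie at chr6:4505368-4505617 on the plus strand, chr1:45311288-45311537 on the plus strand, chr11:55420081-55420330 on the minus strand and chr4:64047016-64047265 on the minus strand. Col1a2 and Tnc were picked after their values were seen. Capitals mark motifs searched on both strands. TATAA is the TATA motif. CCAAT gives the CCAAT box its name. GGGCGG is the GC box bound by Sp1. The last, bound by AP-1, is TGACTCA or its reverse complement.
Col1a2: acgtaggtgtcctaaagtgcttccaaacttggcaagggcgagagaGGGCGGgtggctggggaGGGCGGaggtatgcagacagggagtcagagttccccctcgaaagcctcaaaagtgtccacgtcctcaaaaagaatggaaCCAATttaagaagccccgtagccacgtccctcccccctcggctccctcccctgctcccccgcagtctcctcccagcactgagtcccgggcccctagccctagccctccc
Col3a1: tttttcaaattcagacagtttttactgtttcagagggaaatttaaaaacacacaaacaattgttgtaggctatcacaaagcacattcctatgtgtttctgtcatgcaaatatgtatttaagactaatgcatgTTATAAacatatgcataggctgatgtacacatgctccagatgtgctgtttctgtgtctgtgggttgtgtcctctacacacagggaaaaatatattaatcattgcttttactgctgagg
Sparc: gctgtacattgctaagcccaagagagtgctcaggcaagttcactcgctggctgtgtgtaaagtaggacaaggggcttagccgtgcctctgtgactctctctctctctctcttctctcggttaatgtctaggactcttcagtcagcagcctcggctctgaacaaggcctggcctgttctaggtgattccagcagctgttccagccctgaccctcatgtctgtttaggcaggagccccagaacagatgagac
Tnc: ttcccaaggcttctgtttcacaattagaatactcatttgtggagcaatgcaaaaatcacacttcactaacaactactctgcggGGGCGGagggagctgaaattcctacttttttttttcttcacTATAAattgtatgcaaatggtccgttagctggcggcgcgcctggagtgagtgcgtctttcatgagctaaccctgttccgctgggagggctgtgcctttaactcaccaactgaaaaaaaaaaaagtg
The Col1a2 window held CCAAT and 2 copies of GGGCGG, that of Col3a1 TATAA on both strands at overlapping letters, that of Tnc TATAA and GGGCGG, and that of Sparc no match. The TATAA matches lay 117 and 118 bases before the annotated start in Col3a1 and 126 bases before it in Tnc. Whether they act as TATA boxes was not tested. Of the 23 windows, 3 held TATAA, 10 CCAAT, 13 GGGCGG and 1 an AP-1 motif. The shares of the 32851 windows in the table with these motifs were, in that order, 22.8%, 33.8%, 32.7% and 4.46%. Col1a2, Col3a1 and Sparc, which were high in the same ears, held different sets of these motifs.

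All 37 genes passed the filter on low counts, and 0 passed a Benjamini-Hochberg adjusted p of 0.05 in edgeR's quasi-likelihood test, where the background was 0% of the 15096 genes tested (0 called). The smallest adjusted p of a matrix gene was 0.999. Before adjustment, 0 matrix genes had a p under 0.05, against 1.04% of all genes (0.378% higher and 0.662% lower). DESeq2 and limma-voom also gave 0 matrix genes at either level, where 1.94% and 1.96% of all genes had an unadjusted p under 0.05. In no matrix gene did the 4 ears of 1 group lie wholly above those of the other, against 1.19% of all genes. The estimate was higher with the inhibitor in 26 of the 37 genes and lower in 11, with a median log2 fold change of 0.12, beside 0.03 and a share of 54.5% higher over all genes tested. For 33 of the 37 genes the estimate was smaller than its own standard error. The median standard error was 0.43 on the log2 scale against 0.26 over all genes, so that the 95% interval lay within a 2-fold change in either direction for 17 genes and reached beyond it for the rest. These intervals do not show that the inhibitor left the genes unaltered.

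**Figure D1:**
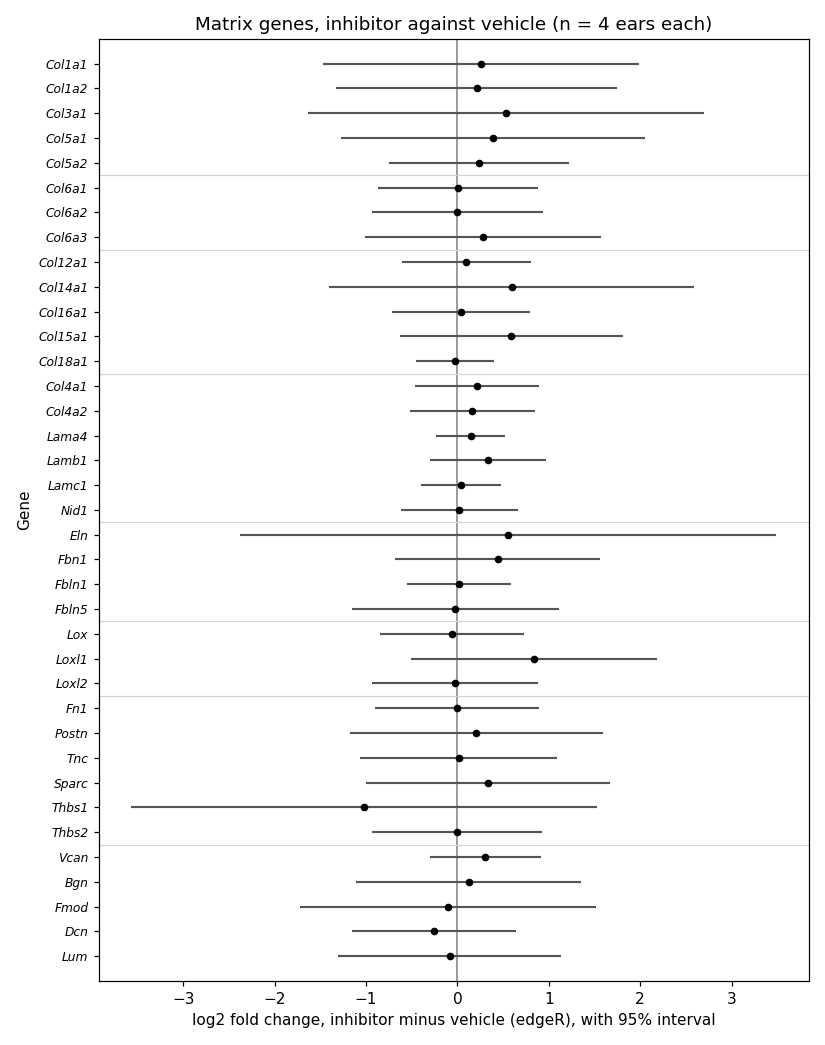
Each point is the log2 fold change of 1 matrix gene, inhibitor minus vehicle, from edgeR (x axis), with its 95% interval as a line, for 4 ears in each group; genes are on the y axis in blocks by role. Every interval crosses 0, and those of Eln and Thbs1 are the widest.

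The direction of these small estimates moved with the ears included. Without inhibitor mouse 4, 5 of the 37 genes had a higher estimate and the median was -0.24. Without vehicle mouse 1 it was 19 genes, with a median of 0.045, and without inhibitor mouse 1 it was 35, with a median of 0.26. With total counts in place of TMM scaling 34 genes were higher, under a scaling that moves the median of all genes to 0.12. With limma-voom and sample quality weights 17 were higher. With the mouse number as a block, 24 genes were higher and 0 passed after adjustment. In that fit Col5a1 and Loxl1 had an unadjusted p under 0.05, each with an edgeR adjusted p of 0.717. They are 5.41% of the matrix genes, where the block gave 4.8% of all genes.

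Collagens I, III and V form the banded fibrils of the dermis. Col1a1, the alpha 1 chain of collagen I, had 237, 197, 924 and 1812 CPM in the ears of vehicle mice 1 to 4, against 513, 562, 857 and 1863 CPM in those of the inhibitor group. The ears numbered 3 and 4 were high in both groups. The groups overlapped, although vehicle mice 1 and 2 were below every inhibitor ear. Vehicle ears averaged 793 ± 757 CPM and inhibitor ears 949 ± 628 CPM (SD, n = 4), for a log2 fold change of 0.26 (SE 0.75, edgeR adjusted p = 0.999). Col3a1, the chain of collagen III, which is prominent in young and healing dermis, had 200.1, 166, 1096 and 2417 CPM in vehicle ears and 389, 862, 1123 and 3223.5 CPM in inhibitor ears. Its highest ear was inhibitor mouse 4 and its lowest vehicle mouse 2, a 19.4-fold span, and the log2 estimate was 0.53 (SE 0.945, edgeR adjusted p = 0.999). Col5a2, a chain of collagen V, which sets fibril diameter, varied less, with 83.1, 106.5, 115 and 200.5 CPM against 73.9, 129.5, 117 and 274 CPM. Mouse 4 was the highest ear in each group, and the log2 estimate was 0.24 (SE 0.43).

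The 2 other fibrillar chains also had the higher mean with the inhibitor. Col1a2, the alpha 2 chain of collagen I, had 630.2 ± 538 CPM in vehicle ears and 729 ± 468 CPM in inhibitor ears, and Col5a1 had 56.8 ± 50.3 and 74.6 ± 58.4 CPM (SD, n = 4). All 5 genes had a higher estimate, from 0.21 to 0.53, and 0 passed the test. With limma-voom and quality weights all 5 were lower, from -0.20 for Col1a2 to -0.0063 for Col3a1. Leaving out inhibitor mouse 4 turned each of the 5 estimates to the lower side, with -0.30 for Col1a1, -0.32 for Col1a2, -0.29 for Col3a1, -0.30 for Col5a1 and -0.24 for Col5a2. Col1a1 and Col1a2 also had a lower estimate without vehicle mouse 1 (-0.059 and -0.096) or vehicle mouse 2 (-0.079 and -0.075).

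**Figure D2:**
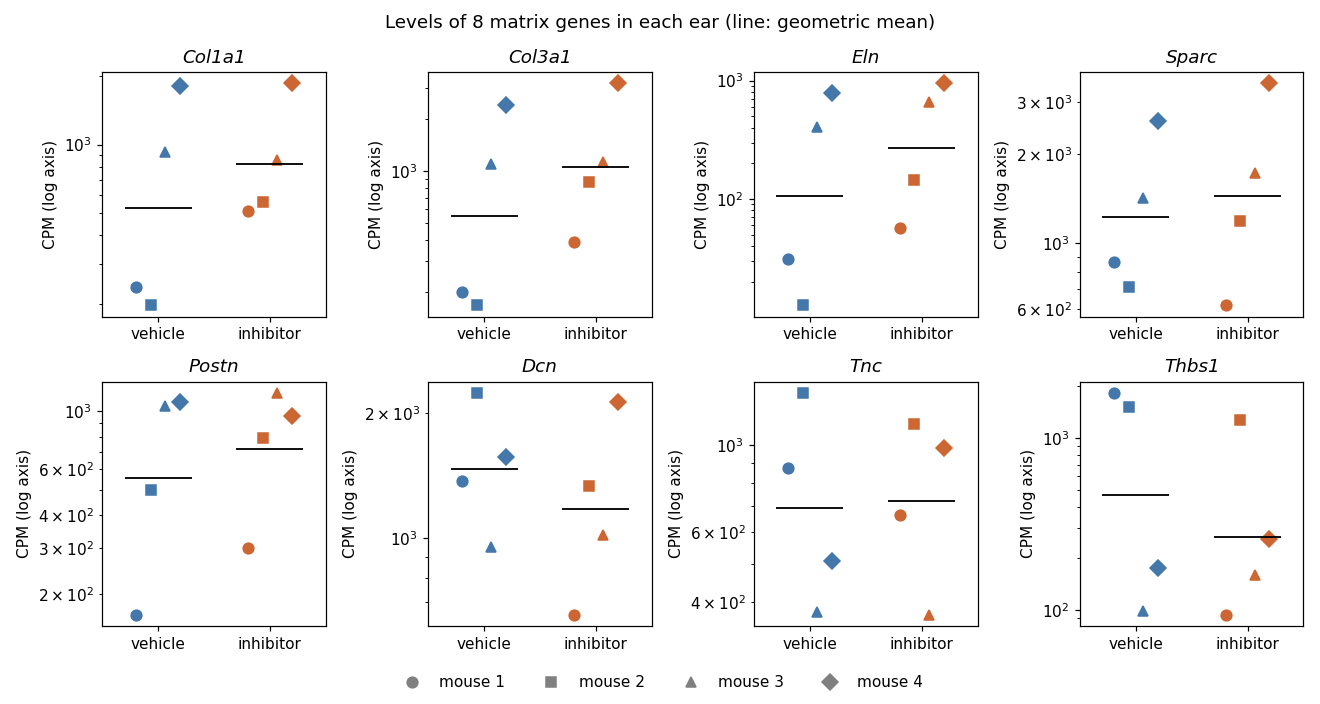
CPM in each ear (log axis) for 8 matrix genes, with vehicle ears in blue and inhibitor ears in orange, 1 symbol shape per mouse number and a line at the geometric mean of each group. Col1a1, Col3a1, Eln, Sparc and Postn are high in mice 3 and 4 of both groups, while Thbs1 is high in vehicle mice 1 and 2 and inhibitor mouse 2.

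Collagen VI forms beaded microfilaments around cells from 3 different chains. Col6a1 had 224, 154, 277 and 388 CPM in the ears of vehicle mice 1 to 4, against 157.5, 184, 275 and 429.5 CPM in those of the inhibitor group. Col6a2 had 219, 144, 297 and 421 CPM against 161, 187, 299 and 433 CPM. Both estimates lay near 0, with log2 fold changes of 0.0033 (SE 0.38) and -0.0017 (SE 0.41). Col6a3, the long chain, had 102, 69.97, 221 and 347 CPM against 108, 160.4, 246 and 385 CPM, for a log2 fold change of 0.28 (SE 0.56). In all 3 genes the ears numbered 3 and 4 were above the others.

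Fibril-associated collagens XII, XIV and XVI bind the surface of fibrils, and collagens XV and XVIII lie near basement membranes. Col15a1 had 20.99, 10.2, 42.3 and 64.8 CPM in the ears of vehicle mice 1 to 4, against 33.2, 50.9, 44.98 and 79.2 CPM in those of the inhibitor group. Vehicle mouse 2 was the lowest ear, and each inhibitor ear was above the vehicle ear of its number, although the groups overlapped (log2 fold change 0.59, SE 0.53, edgeR adjusted p = 0.999). Col14a1 was the matrix gene with the lowest mean TPM. It had 1.95, 2.07, 4.97 and 11.5 CPM against 1.23, 3.295, 7.26 and 19.1 CPM, high in mouse 4 and then mouse 3 of each group (0.59, SE 0.87). Col16a1 had 32.4, 45.9, 68.4 and 94.1 CPM against 54.6, 48.5, 61.99 and 81.97 CPM (0.037, SE 0.33). Col18a1, whose end fragment is endostatin, was the most even of the 37 genes, with 98.8, 97.45, 71.2 and 99.9 CPM against 76.4, 94.8, 74.6 and 115 CPM. Its highest ear was 1.61-fold above its lowest, and the log2 estimate was -0.027 (SE 0.18). Col12a1 had means of 89.9 ± 24.7 and 96.1 ± 35.3 CPM (SD, n = 4). Of the 5 genes 4 had a higher estimate and 0 passed.

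The basement membrane genes varied less between ears than the fibrillar collagens, with the highest ear 1.67-fold to 2.6-fold above the lowest. Col4a1, a chain of collagen IV, had 208, 196, 186 and 273 CPM in the ears of vehicle mice 1 to 4, against 157, 237, 201 and 407 CPM in those of the inhibitor group. Col4a2, its partner chain, had 126, 133, 136 and 200.3 CPM against 114, 139, 139 and 275 CPM. In both, mouse 4 was the highest ear of its group and inhibitor mouse 1 the lowest of all, and the log2 fold changes were 0.22 (SE 0.30) and 0.16 (SE 0.299). The annotated starts of these genes lie 21 bases apart on opposite strands in GRCm38.p6, and counting by strand is not given in the sources used here, so reads at that overlap cannot be assigned to 1 of them with certainty. Lamb1, the laminin beta 1 chain, had 31.0, 32.9, 31.7 and 48.6 CPM against 31.2, 44.1, 36.2 and 70.3 CPM, and its log2 fold change of 0.33 (SE 0.28) had the second smallest p of the 37 genes (0.261, edgeR adjusted p = 0.999). Each inhibitor ear was above the vehicle ear of its number, by a small margin in mouse 1. Lama4, the laminin alpha 4 chain of vessel walls, had 42.9, 51.4, 49.6 and 53.6 CPM against 44.9, 51.9, 49.9 and 71.7 CPM, and it too was higher in each inhibitor ear than in the vehicle ear of its number (0.14, SE 0.17). Lamc1, the laminin gamma 1 chain, had 98.3 ± 9.85 and 101 ± 26.7 CPM, and Nid1, nidogen 1, had 89.8 ± 22.9 and 91.05 ± 31.97 CPM (SD, n = 4). All 6 genes had a higher estimate, and 0 passed.

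Elastin differed more between ears than any other matrix gene. Eln had 31.0, 12.6, 407 and 781 CPM in the ears of vehicle mice 1 to 4, against 56.95, 143, 656 and 955 CPM in those of the inhibitor group. The 4 ears numbered 1 and 2 were all below the 4 ears numbered 3 and 4, a 75.8-fold span from vehicle mouse 2 to inhibitor mouse 4, and each inhibitor ear was above the vehicle ear of its number. The log2 estimate was 0.56 (SE 1.28, edgeR adjusted p = 0.999). With a covariate that separates the ears numbered 1 and 2 from those numbered 3 and 4 it was 1.31, at an unadjusted p of 0.0396 and an edgeR adjusted p of 0.711. That fit gave 2 matrix genes an unadjusted p under 0.05, Eln and Loxl1, or 5.41%, beside 5.11% of all genes.

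Markers of cartilage cells, which in the mouse ear lie in elastic cartilage, were summed beside elastin. The 9 markers together had 300.0, 208.5, 601 and 832 CPM in the ears of vehicle mice 1 to 4, against 133, 334.5, 895 and 1041 CPM in those of the inhibitor group, so they too were high in mice 3 and 4 of both groups. Of the 7 tested, 5 had a higher estimate and 0 passed. Their part in the elastin values was not tested. Of the cartilage markers, Acan, the main cartilage proteoglycan, had 122, 60.7, 353 and 383 CPM against 44.7, 191, 456 and 503 CPM, while Sox9, the transcription factor of cartilage cells and hair follicles, ran from 51.9 to 75.7 CPM. The cartilage matrix genes Matn1 and Matn3 were at or near 0, with at most 0.269 and 0.435 CPM in an ear.

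The other elastic fibre genes had narrower ranges. Fbn1, which encodes fibrillin 1, had 61.96, 56.1, 95.6 and 139.7 CPM against 47.6, 89.6, 110.4 and 232 CPM (0.44, SE 0.49). Fbln1, fibulin 1, had 34.1, 50.0, 71.9 and 75.1 CPM against 52.5, 56.7, 56.2 and 69.0 CPM (0.020, SE 0.25). Fbn1 was high in mice 3 and 4 of both groups, and for Fbln1 this held in the vehicle group. Fbln5, the fibulin needed to assemble elastic fibres, had 33.9 ± 15.0 and 33.4 ± 21.1 CPM (SD, n = 4).

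Lysyl oxidases cross-link collagen and elastin outside the cell. Loxl1 had the smallest p of the 37 genes, 0.191 before adjustment. Its values were 17.8, 13.02, 33.1 and 68.2 CPM in the ears of vehicle mice 1 to 4, against 28.2, 51.4, 46.05 and 111 CPM in those of the inhibitor group. Each inhibitor ear was above the vehicle ear of its number, by 0.67, 1.98, 0.48 and 0.70 on the log2 scale, but the groups overlapped. Vehicle ears averaged 33.0 ± 25.0 CPM and inhibitor ears 59.1 ± 35.9 CPM (SD, n = 4), for a log2 fold change of 0.84 (SE 0.59, edgeR adjusted p = 0.999). Its estimate was positive in every alternative run and ran from 0.34 without inhibitor mouse 4 to 1.47 without vehicle mouse 4. Lox, the founding member of the family, had 231, 156, 182.5 and 231 CPM against 98.4, 166, 176 and 328.5 CPM (-0.059, SE 0.34), with the lowest and the highest ear both in the inhibitor group. Loxl2, an oxidase acting on collagen IV, had 57.8 ± 22.3 and 56.7 ± 28.9 CPM.

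Sparc, a collagen-binding protein of remodelling tissue, had the highest mean TPM of the 37 genes. It had 865.5, 710.5, 1422 and 2585 CPM in the ears of vehicle mice 1 to 4, against 617, 1186, 1734 and 3484 CPM in those of the inhibitor group, high in mice 3 and 4 of both groups (0.33, SE 0.58, edgeR adjusted p = 0.999). Postn, which encodes periostin, a matricellular protein of skin inflammation and repair, had 166, 498, 1051 and 1082 CPM against 300.2, 793, 1178 and 958 CPM. It was lowest in mouse 1 of each group, and the log2 estimate was 0.21 (SE 0.60).

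Thrombospondin 1, which binds and activates latent TGF-beta and limits vessel growth, was the gene whose estimate was farthest from 0. Thbs1 had 1838, 1517, 98.4 and 176.5 CPM in the ears of vehicle mice 1 to 4, against 93.6, 1276, 161 and 258 CPM in those of the inhibitor group. It was thus high in 3 ears, 2 with vehicle and 1 with the inhibitor, and the 3 lowest ears were inhibitor mouse 1, vehicle mouse 3 and inhibitor mouse 3. The means were 907 ± 899 and 447 ± 557 CPM (SD, n = 4), for a log2 fold change of -1.02 (SE 1.11, edgeR adjusted p = 0.999). Among mice 1 and 2 the difference of mean log2 CPM was -2.27 and among mice 3 and 4 it was 0.63. The estimate was 0.46 with limma-voom and sample quality weights, -2.44 without inhibitor mouse 2 and -0.44 without vehicle mouse 1. The 10 neutrophil markers, all with a lower estimate and 0 passing the test, were high in the same 3 ears, with a sum of 10947, 13917, 1117 and 1050.3 CPM in the ears of vehicle mice 1 to 4, against 968, 7517, 863 and 1175 CPM in those of the inhibitor group. Their part in the Thbs1 values was not tested.

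Tnc, chosen for its values after they were seen, encodes tenascin C, a large glycoprotein of wounds and inflamed skin. It had 872, 1355, 378 and 509 CPM against 662, 1126, 370.3 and 984 CPM. Mouse 3 was the lowest ear in each group and mouse 2 the highest, and the log2 estimate was 0.013 (SE 0.47). This order was unlike that of Col1a1 and Col3a1, but Col12a1 was also lowest in mouse 3 of each group (64.1 and 55.45 CPM). Fn1, fibronectin, had 134 ± 41.3 and 133 ± 69.6 CPM, and Thbs2, thrombospondin 2, had 77.0 ± 35.4 and 76.8 ± 35.2 CPM (SD, n = 4). Of the 6 glycoprotein genes 3 had a higher and 3 a lower estimate, and 0 passed.

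Proteoglycans of the dermis differed in their order of ears. Dcn, decorin, had the second highest mean TPM of the 37 genes, with 1372, 2237, 952 and 1565.5 CPM in the ears of vehicle mice 1 to 4, against 651, 1336, 1016 and 2127 CPM in those of the inhibitor group. The highest ear was vehicle mouse 2 and the lowest inhibitor mouse 1, and the log2 estimate was -0.26 (SE 0.39, edgeR adjusted p = 0.999). Bgn, biglycan, a close relative of decorin, was high in mice 3 and 4 of both groups instead, as were Col1a1 and Col3a1. It had 413, 425, 768 and 1178 CPM against 285, 480.2, 853 and 1417.5 CPM (0.12, SE 0.54). Vcan, the large hyaluronan-binding proteoglycan versican, had 83.96, 65.8, 41.0 and 54.9 CPM against 67.0, 68.7, 59.3 and 108 CPM. Vehicle mouse 3 was its lowest ear and inhibitor mouse 4 its highest (0.31, SE 0.27, unadjusted p = 0.282, edgeR adjusted p = 0.999). Fmod, fibromodulin, ran from 10.55 CPM in inhibitor mouse 1 to 146 CPM in inhibitor mouse 4, with means of 75.4 ± 32.9 and 70.1 ± 61.5 CPM (SD, n = 4). Lum, lumican, had 212.5 ± 86.0 and 200.1 ± 140.3 CPM. Of the 5 genes 2 had a higher and 3 a lower estimate, and 0 passed.

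**Figure D3:**
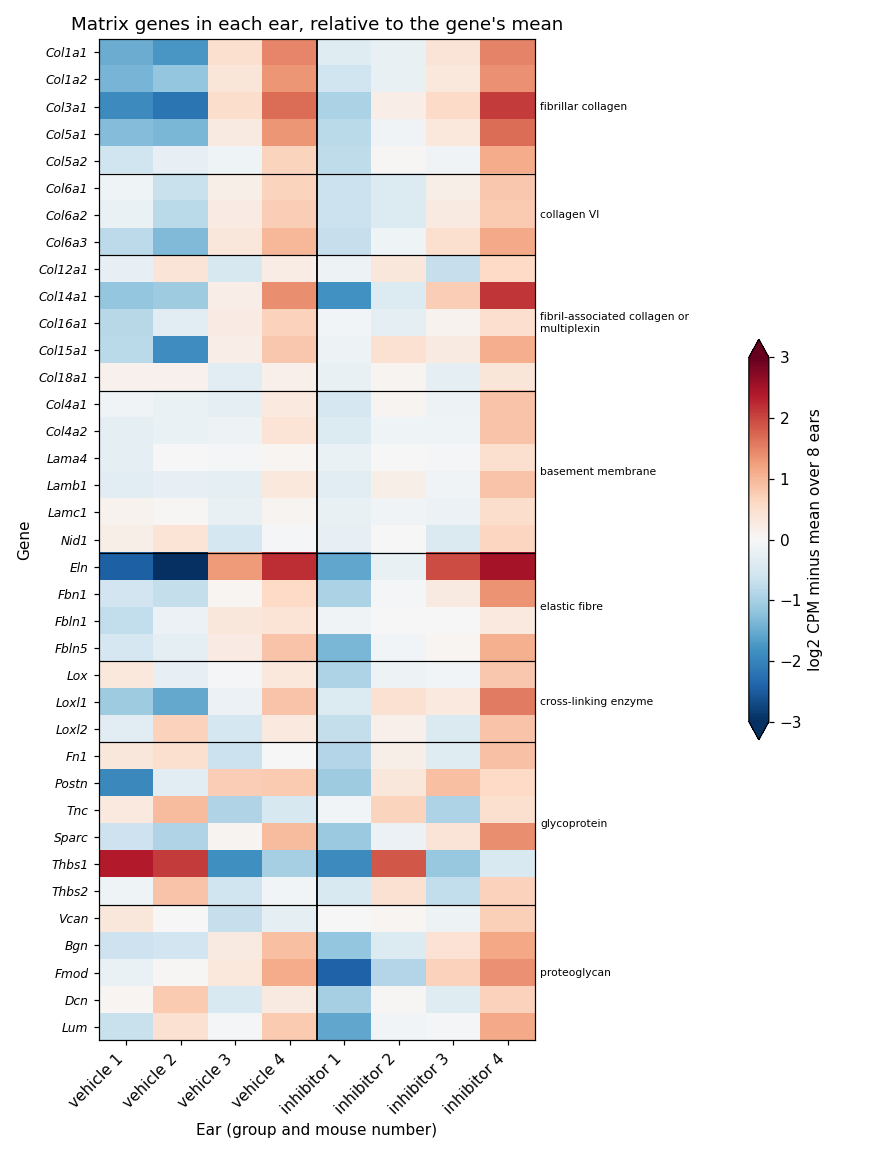
Colour gives the log2 CPM of each matrix gene (rows, in blocks by role) in each ear (columns, vehicle left and inhibitor right of the black line) minus its mean over the 8 ears. Inhibitor mouse 4 is the highest ear in 30 of the 37 rows, and Thbs1 is high in vehicle mice 1 and 2 and inhibitor mouse 2.

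The 37 genes summed to 0.334%, 0.364%, 0.542% and 0.888% of all TPM in vehicle mice 1 to 4 and to 0.27%, 0.452%, 0.588% and 1.1% in inhibitor mice 1 to 4. The order of the mice was the same in each group, with mouse 4 first and mouse 1 last. Inhibitor mouse 4 was the highest ear for 30 of the 37 genes, or 81.1%, against 21.0% of all genes tested, and inhibitor mouse 1 was the lowest for 15, or 40.5%, against 17.2%. The median gene of the set was 3.66-fold higher in its highest ear than in its lowest, where the median over the 14967 tested genes with reads in every ear was 2.04-fold. All ears numbered 3 and 4 lay above all ears numbered 1 and 2 in 16 genes, or 43.2%, and below them in 0, where the background was 19.5% above and 18.4% below. That division was known from earlier results of these data and is not in the labels, so these shares are a description.

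The 12 fibroblast markers, by which the cells that make this matrix are known, summed to 1688, 1646, 1818 and 2826 CPM in the ears of vehicle mice 1 to 4, against 1143.5, 1727, 2368 and 3402 CPM in those of the inhibitor group. In this sum mouse 4 was the highest ear of each group here too, and inhibitor mouse 1 the lowest of all. Much of the sum was Gsn, with 1107, 829, 1052 and 1755 CPM against 462, 987, 1602 and 2149 CPM. Gsn was not alone in this order. Mouse 4 of each group was also the highest ear for Pi16, Dpt, Dpp4, Cd34, Fap, Clec3b and Mfap5. For Pdgfra, Twist2 and Lsp1 this held in the inhibitor group, while the highest vehicle ear was mouse 2. Inhibitor mouse 1 was the lowest of all for Gsn, Pdgfra, Pi16, Dpt, Cd34, Lsp1, Clec3b and Mfap5. Dpp4, Thy1, Twist2 and Fap were lowest in other ears. Thy1, the next marker by level in most ears, was lowest in vehicle mouse 1, at 178 CPM. Its highest vehicle ear was mouse 4 (494 CPM) and its highest inhibitor ear mouse 1 (477 CPM). Pdgfra, the receptor that defines dermal fibroblasts, had 71.85, 93.3, 47.2 and 65.4 CPM against 45.6, 64.0, 64.4 and 126 CPM. The endothelial markers summed to between 276 and 675 CPM, the mural cell markers of vessel walls to between 266 and 1107 CPM, the macrophage markers to between 374 and 2166 CPM, the adipocyte markers to between 106 and 689 CPM and the Schwann cell markers to between 227 and 636.5 CPM. In each of these 5 lists the groups overlapped and 0 genes passed the test. Des was the largest mural cell marker in every ear, with 177.5, 68.0, 266 and 303 CPM against 552, 81.7, 420 and 658 CPM. It set much of the range of that sum. Like the skeletal muscle sum, Des was lowest in mouse 2 of each group. The 10 skeletal muscle markers all had a higher estimate (median log2 fold change 1.11), as did the 9 adipocyte markers (0.47), and 0 passed. The part of any cell type in the matrix values was not tested.

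Ratios of TPM within an ear show which genes kept step. Col6a1 to Col6a2, chains of 1 protein, stayed between 0.881 and 1.03 in the 8 ears, while the CPM of the 2 genes spanned 2.79-fold and 3.01-fold. Col4a1 to Col4a2 stayed between 1.33 and 1.66. Col1a1 to Col1a2, whose chains combine in a fixed proportion in collagen I, ran from 0.713 in vehicle mouse 2 to 1.25 in inhibitor mouse 1. Subunits of 1 protein could also part: Col5a1 to Col5a2 ran from 0.143 in vehicle mouse 2 to 0.497 in vehicle mouse 4, and Col6a3 to Col6a1 was 0.204 in both vehicle mice 1 and 2 and between 0.318 and 0.412 in the other 6 ears. Col3a1 to Col1a1, a ratio that is higher in young and repairing skin, was 0.901, 0.9, 1.26 and 1.42 in vehicle mice 1 to 4 and 0.807, 1.64, 1.4 and 1.85 in inhibitor mice 1 to 4, so the groups overlapped.

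Genes of different proteins diverged further. Eln to Fbn1 ran from 0.608 in vehicle mouse 2 to 16.4 in inhibitor mouse 3. Postn to Tnc was 0.358 and 0.701 in vehicle mice 1 and 2 and 5.26 and 4.02 in vehicle mice 3 and 4, with 0.844, 1.32, 6.07 and 1.85 in inhibitor mice 1 to 4. Dcn to Bgn was 4.39, 6.96, 1.64 and 1.76 with vehicle and 3.03, 3.67, 1.58 and 1.98 with the inhibitor. In these 3 ratios the ears numbered 3 and 4 lay on 1 side of those numbered 1 and 2 in both groups.

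**Figure D4:**
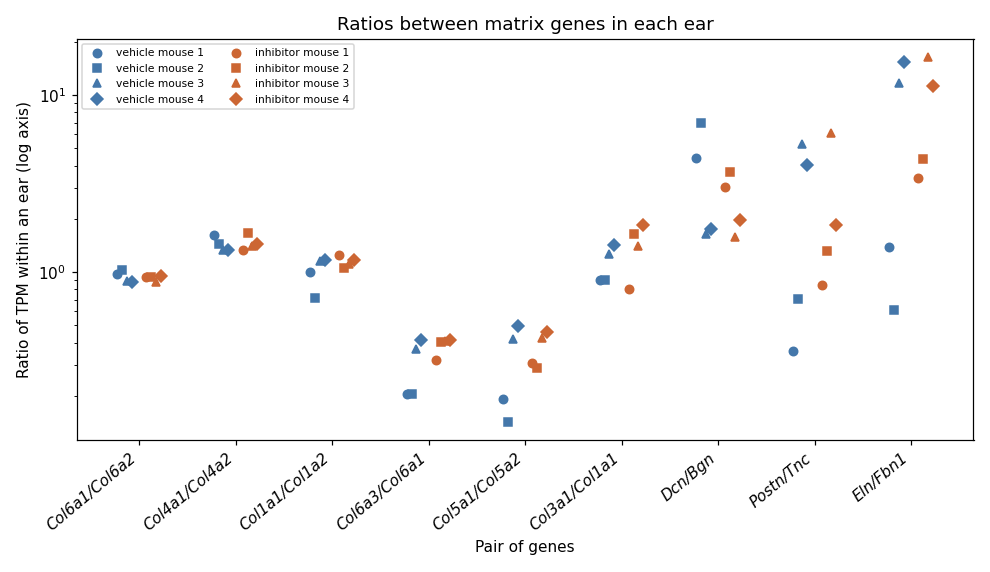
Ratios of TPM between pairs of matrix genes within each ear (y axis, log scale), with vehicle ears in blue, inhibitor ears in orange and 1 symbol shape per mouse number. Col6a1/Col6a2 stays between 0.881 and 1.03, while Eln/Fbn1 runs from 0.608 to 16.4.

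Each inhibitor ear was also set against the vehicle ear of its number, which came from another mouse. Over all genes, ears of the same number deviated together from their group means, but so did ears of different numbers within mice 1 and 2 and within mice 3 and 4. The median difference of the 37 genes was -0.325 on the log2 scale in mouse 1, 0.18 in mouse 2, 0.067 in mouse 3 and 0.42 in mouse 4, where the medians of all genes tested were 0.037, 0.0097, 0.0098 and 0.036. The inhibitor ear was higher for 14 genes (37.8%) in mouse 1, 25 (67.6%) in mouse 2, 26 (70.3%) in mouse 3 and 34 (91.9%) in mouse 4. The shares of all genes tested were 53.3%, 50.7%, 52.0% and 55.9%. In mouse 1 the large matrix genes parted, with Col1a1 at 1.12 and Col3a1 at 0.96 but Dcn at -1.08, Fmod at -2.22 and Thbs1 at -4.30. In 8 of the 37 genes (21.6%, against 10.4% of all genes tested) the inhibitor ear was higher in all 4 numbers, namely Col3a1, Col5a1, Col6a3, Col15a1, Lama4, Lamb1, Eln and Loxl1, by under 0.05 in some pairs. Among mice 1 and 2 the median was -0.034 with 18 genes higher, and among mice 3 and 4 it was 0.24 with 32 higher.

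**Figure D5:**
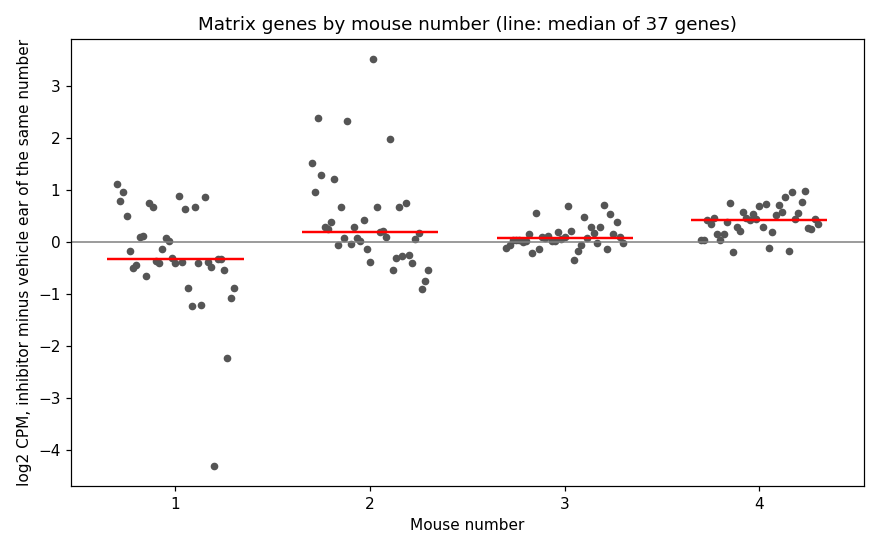
Each point is 1 matrix gene, with the log2 CPM of the inhibitor ear minus that of the vehicle ear of the same mouse number on the y axis, and the line is the median of the 37 genes. The medians are -0.325, 0.18, 0.067 and 0.42 for mice 1 to 4.

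Genes that make, receive or accompany the matrix were counted in the same fit, and 0 of them passed after adjustment. Of 28 genes for collagen assembly and processing 20 had a higher estimate, with a median log2 fold change of 0.16, and the smallest p were those of the prolyl 4-hydroxylase subunit genes P4ha3 (0.93, SE 0.56) and P4ha2 (-0.31, SE 0.22). Of 20 matrix receptors 8 were higher, with a median of -0.058, and 1 had an unadjusted p under 0.05, as did 1.04% of all genes tested. This was Ddr2, a receptor kinase that binds fibrillar collagen, with 59.4 ± 5.965 CPM in vehicle ears and 75.35 ± 11.1 CPM in inhibitor ears (SD, n = 4; log2 fold change 0.34, SE 0.14, unadjusted p = 0.0427, edgeR adjusted p = 0.999). Itgav, the integrin alpha V subunit, had -0.59 (SE 0.35). Of the 25 other collagens tested, out of 29, 21 were higher with a median of 0.25, led by the membrane collagen gene Col13a1 (0.53, SE 0.38) and Col22a1, a collagen of tissue junctions (0.41, SE 0.31). Of 41 other matrix genes 31 were higher with a median of 0.12. Mfap4, a microfibril-associated protein gene, had 44.0 ± 17.5 CPM in vehicle ears and 20.2 ± 12.8 CPM in inhibitor ears (-1.12, SE 0.500, unadjusted p = 0.05445, edgeR adjusted p = 0.999), and Spon1, spondin 1, had 0.68 (SE 0.40). TGF-beta induced genes, with 7 of 14 higher and a median of 0.018, were led by Smad7 (-0.81, SE 0.53) and Skil (-0.55, SE 0.42), which encode inhibitors of that pathway. Over all genes tested the share higher was 54.5% and the median 0.03.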

How the data were processed

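Polyadenylated RNA from 8 ears, 4 inhibitor and 4 vehicle by their titles, was read from 1 end, 50 bases at a time, by DNBSEQ, per the labels' protocols. HISAT and the GRCm39 build are named in the submitters' processing notes; for the counting tool, its annotation and its strand setting nothing is stated there. The authors deposited estimated counts for each library with no scaling, and 33.7% to 35.3% of a library's values were not whole within 1e-09. The deposited TPM carry a correction for gene length and sum to the same total in every library. The deposited FPKM are divided by gene length and library size. The 6 columns of group means were not used.

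Counts were rounded, kept with filterByExpr (15096 genes) and scaled with TMM factors from 0.815 to 1.08. The main test was edgeR 4.0.16's quasi-likelihood test in R 4.3.3 on all 8 libraries without a covariate. It used Benjamini-Hochberg adjustment over all genes and a threshold of 0.05. It was also run on simulated counts, but these held no division of the mouse numbers. That run therefore does not show how the test performs with such a division. Standard errors are the log2 fold change over the root of F. Alternatives used DESeq2 1.42.0, limma 3.58.1 on voom values and on log2(TPM + 1) or log2(FPKM + 1), other scalings and filters, the mouse number as a block, the division of the mouse numbers as a covariate, and each library left out. Differences within mice 1 and 2 and within mice 3 and 4, and the count of higher estimates, were added after the data were seen. The correlation of same-numbered libraries' deviations from their group means came to 0.397 (mouse 1), 0.71 (mouse 2), 0.673 (mouse 3) and 0.682 (mouse 4). Each is over 0.1, the minimum set for using the number as a block. Ears of different numbers correlated as well within mice 1 and 2 and within mice 3 and 4: inhibitor mouse 3 with vehicle mouse 4 at 0.685, above its own number, inhibitor mouse 4 with vehicle mouse 3 at 0.377, inhibitor mouse 2 with vehicle mouse 1 at 0.554 and inhibitor mouse 1 with vehicle mouse 2 at 0.272. The pairing comes from the data, since no label ties a number to a litter, batch or day. No 2 libraries of a group were alike within counting error (chi-square per degree of freedom from 23.7 to 304).

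The matrix genes and the lists were chosen with earlier results of these data known. Values in every ear are given for the 2 genes of each of 8 role groups with the highest mean TPM and the 2 with the smallest p, and the 2 genes with the smallest p are named of each of 5 further lists; Tnc, the promoter of Col1a2 and the single markers were chosen after their values were seen. Precision is limited by the spread between 4 mice a group, not by depth. In the main test, run without a covariate, that spread included the division of the mouse numbers. There edgeR gave 1.04% of all genes an unadjusted p under 0.05, and with the division as a covariate 5.11%. After adjustment 0 genes passed in either fit. Promoter sequences are from RefSeq, GRCm38.p6, at the most upstream listed start.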

Additional observations from a re-analysis of the deposited data

Results flagged for a closer look

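In 4 of 74 sets of 4 ears, 1 ear stood apart from the others of its group on the log2 CPM scale, by a gap above Dixon's 95% critical value for 4 samples, as a share of the group's range. Chance flags about 1 in 20 sets, so 4 of 74 is about what chance gives. Col18a1 was low in vehicle mouse 3, at 71.2 CPM against 97.45 to 99.9 CPM in the other 3 vehicle ears, with a gap of 0.927 of the range. Lamb1 was high in vehicle mouse 4, at 48.6 CPM against 31.0 to 32.9 CPM (0.867). Col4a2 was high in the same ear, at 200.3 CPM against 126 to 136 CPM (0.832). Lamc1 was high in inhibitor mouse 4, at 141 CPM against 84.5 to 91.3 CPM (0.849).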

How the results depend on the processing

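Under each alternative that refitted the model, 0 matrix genes and 0 genes in all passed the threshold, and the smallest adjusted p of any gene was 0.144, with DESeq2. The mouse number as a replicate block changed no call after adjustment, and the median log2 fold change of the matrix genes was 0.10 with it. Of 369 pairs of a matrix gene and an alternative other than a left-out library, 319 kept their direction and 50 did not. None of the 50 passed the test, and the cause was not tested. The estimates of Col15a1, Lamb1 and Loxl1 had 1 direction under all alternatives run. Those of Vcan and Dcn had 1 direction in every refit, but Vcan was -0.13 within mice 1 and 2 and Dcn 0.27 within mice 3 and 4. The count of matrix genes with a higher estimate, 26, was 17 with limma-voom and quality weights; over left-out libraries it ran from 5 to 35, and the median from -0.24 to 0.31. Within mice 1 and 2 the count was 18 and the median -0.034. The all-gene median was 0.15 on log2(TPM + 1), 0.11 on log2(FPKM + 1) and 0.12 with total counts, and the matrix medians there were 0.24, 0.19 and 0.21.

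With DESeq2 size factors the reversed values were -0.015 for Col6a1, -0.0057 for Nid1, -0.0001 for Fbln1 and -0.017 for Tnc. DESeq2 itself gave -0.015 for Col6a1, -0.0056 for Nid1, -0.0003 for Fbln1 and -0.017 for Tnc. Total counts gave 0.050 for Col6a2, 0.082 for Col18a1, 0.031 for Fbln5, 0.034 for Lox, 0.10 for Loxl2, 0.13 for Fn1, 0.14 for Thbs2 and 0.0016 for Lum. Without a low-count filter they were 0.0049 for Col6a2, 0.0075 for Fn1 and 0.010 for Thbs2, and with at least 1 CPM in every library 0.0003 for Fn1 and 0.0008 for Thbs2. Limma-voom gave -0.19 for Col1a1, -0.20 for Col1a2, -0.0063 for Col3a1, -0.088 for Col5a1, -0.055 for Col5a2, -0.18 for Col6a1, -0.017 for Col6a3 and -0.085 for Col12a1. It also gave -0.22 for Col16a1, -0.027 for Col4a2, -0.23 for Fbln1, 0.18 for Fn1, 0.46 for Thbs1, 0.030 for Thbs2 and -0.12 for Bgn. On log2(TPM + 1) they were 0.13 for Col6a2, 0.10 for Col18a1, 0.065 for Loxl2, 0.054 for Fn1 and 0.11 for Thbs2. On log2(FPKM + 1) they were 0.10 for Col6a2, 0.067 for Col18a1, 0.036 for Loxl2, 0.026 for Fn1 and 0.083 for Thbs2; Col14a1 did not pass that filter. The block gave -0.029 for Col6a1 and -0.0031 for Nid1, and the division of the mouse numbers as a covariate -0.033 for Col6a1 and 0.045 for Thbs2.

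Leaving out each library in turn moved the log2 fold changes over these ranges in the 31 genes with a reversal. Collagens ran from -0.30 to 1.07 for Col1a1, -0.32 to 0.92 for Col1a2, -0.29 to 1.52 for Col3a1, -0.30 to 1.15 for Col5a1, -0.24 to 0.55 for Col5a2, -0.34 to 0.26 for Col6a1, -0.32 to 0.30 for Col6a2 and -0.11 to 0.78 for Col6a3. Others ran from -0.11 to 0.29 for Col12a1, -0.38 to 1.36 for Col14a1, -0.18 to 0.34 for Col16a1, -0.16 to 0.056 for Col18a1, -0.12 to 0.39 for Col4a1, -0.19 to 0.34 for Col4a2, -0.013 to 0.23 for Lama4, -0.16 to 0.11 for Lamc1 and -0.24 to 0.15 for Nid1. Elastic fibre and cross-linking genes ran from -0.11 to 1.59 for Eln, -0.097 to 0.76 for Fbn1, -0.18 to 0.17 for Fbln1, -0.51 to 0.31 for Fbln5, -0.45 to 0.16 for Lox and -0.41 to 0.21 for Loxl2. The rest ran from -0.39 to 0.21 for Fn1, -0.13 to 0.50 for Postn, -0.24 to 0.40 for Tnc, -0.24 to 0.82 for Sparc, -0.27 to 0.34 for Thbs2, -0.37 to 0.51 for Bgn, -0.75 to 0.26 for Fmod and -0.65 to 0.21 for Lum.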
